A study of Mus musculus with 8 samples.

Results

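A set of 10 enzymes and cofactors that write, copy, protect or erase DNA methylation were followed across 4 genotypes of mouse embryonic stem (ES) cells. The genes were Dnmt3a, Dnmt3b and Dnmt3l (de novo methylation), Dnmt1 and Uhrf1 (maintenance), Tet1, Tet2 and Tet3 (oxidation of 5-methylcytosine), and Zfp57 and Trim28 (protection of imprints). They were taken from a list of gene names and matched to Ensembl identifiers of GENCODE M21. All 10 were found among the 48440 genes in the count files, and all 10 were among the 17049 genes with enough reads to be tested. On GRCm38, the genes on the plus strand are Dnmt3a at chr12:3806007-3914443, Dnmt3b at chr2:153649450-153687730, Dnmt3l at chr10:78041947-78063622, Uhrf1 at chr17:56303321-56323486, Zfp57 at chr17:37001163-37010635 and Trim28 at chr7:12999114-13031035. Those on the minus strand are Dnmt1 at chr9:20907209-20959888, Tet1 at chr10:62804570-62908996, Tet2 at chr3:133463679-133545139 and Tet3 at chr6:83362373-83459084. Reads were summed over all exons of a gene.

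The cells were MK6, an ES cell line from the C57BL/6J strain, sampled by poly(A) RNA sequencing after 1 day of feeder-free differentiation with CHIR99021, a GSK3 inhibitor that activates Wnt signalling and is used to switch on Tbxt, the T-box factor of the primitive streak. The study asked how a Tbxt isoform without exon 6, made in apes by an intronic Alu pair, acts beside or in place of the full-length form. WT cells were unedited. Tbxt delE6/delE6 cells lack exon 6 on both alleles, Tbxt delE6/+ cells lack it on 1 allele, and Tbxt Insert ASAY cells carry human AluSx1 and AluY elements in introns 5 and 6 of both alleles. Each genotype had 2 libraries. The Tbxt delE6/delE6 libraries came from different clones. For the other edited genotypes the number of clones is not given in the sources used here, so genotype and clone cannot be told apart, and p-values measure the spread between these libraries. All 4 genotypes share the parent line and the treatment, but the edited lines differ in how they were made. Exon 6 was deleted in feeder-free cells selected with blasticidin. The Alu pair was inserted in cells grown on feeders and selected with puromycin, and Cre and ganciclovir were used afterwards to obtain cells without the selection marker.

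Libraries held 24618587 to 28445952 reads on genes. WT replicates had 47 and 42 reads on Tbxt, Tbxt delE6/delE6 26 and 22, Tbxt delE6/+ 39 and 54, and Tbxt Insert ASAY 30 and 29. These counts cover the whole gene, so they do not check the edits. The log2 fold change of Tbxt in Tbxt delE6/delE6 was -0.81 (edgeR adjusted p = 0.036), a call that DESeq2 did not make (adjusted p = 0.162). The call was also lost with only the 2 groups compared, without either WT replicate and without Tbxt delE6/delE6 replicate 2. The Tbxt delE6/delE6 replicates stood apart from each other, with a chi-square per degree of freedom of 10.5 between their counts against 2.65 to 3.27 in the other genotypes. ES cell markers (Pou5f1, Sox2, Lin28a, Utf1 and Sall4) summed to 825 to 1056 CPM (read counts scaled to library size by TMM) and none was at 0. Markers of fibroblasts, the usual feeder cells, summed to 15.5 to 28.0 CPM, and markers of trophoblast to 3.97 to 8.21 CPM. In bulk RNA, fewer cells of a type and less RNA per cell cannot be told apart.

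DNA methylation in mammals sits mainly on cytosines of CG dinucleotides. DNMT3A and DNMT3B set it with the help of the inactive cofactor DNMT3L, UHRF1 brings DNMT1 to newly replicated DNA to copy it, and TET enzymes oxidize it towards unmodified cytosine. ES cells leaving the naive state gain methylation genome-wide, while ZFP57 and its partner TRIM28 keep imprinted regions methylated.

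Because CG dinucleotides are the substrate of these enzymes, the windows around the genes' own starts were read first. In all, 19 RefSeq windows of GRCm38.p6, from 250 bases before to 50 bases after a start, matched the 10 genes. The windows shown belong to the genes that passed both thresholds of a test given further on, with the window richest in CG where a gene had more than 1, and CG is in capitals.
Tet2, chr3:133544341-133544640, minus strand: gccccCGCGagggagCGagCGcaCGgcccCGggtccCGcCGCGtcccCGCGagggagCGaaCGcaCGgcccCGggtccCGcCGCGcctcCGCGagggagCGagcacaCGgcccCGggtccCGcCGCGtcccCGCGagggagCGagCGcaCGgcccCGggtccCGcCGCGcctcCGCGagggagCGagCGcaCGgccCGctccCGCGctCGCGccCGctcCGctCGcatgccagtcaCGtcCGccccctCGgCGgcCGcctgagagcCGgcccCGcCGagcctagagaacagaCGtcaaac
Tet3, chr6:83441629-83441928, minus strand: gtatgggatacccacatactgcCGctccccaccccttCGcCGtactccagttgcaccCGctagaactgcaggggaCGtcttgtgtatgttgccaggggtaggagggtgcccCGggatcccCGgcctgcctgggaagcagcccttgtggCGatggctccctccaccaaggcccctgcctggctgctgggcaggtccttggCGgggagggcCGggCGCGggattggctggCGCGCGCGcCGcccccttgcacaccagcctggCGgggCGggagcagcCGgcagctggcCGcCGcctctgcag
Dnmt3l, chr10:78042037-78042336, plus strand: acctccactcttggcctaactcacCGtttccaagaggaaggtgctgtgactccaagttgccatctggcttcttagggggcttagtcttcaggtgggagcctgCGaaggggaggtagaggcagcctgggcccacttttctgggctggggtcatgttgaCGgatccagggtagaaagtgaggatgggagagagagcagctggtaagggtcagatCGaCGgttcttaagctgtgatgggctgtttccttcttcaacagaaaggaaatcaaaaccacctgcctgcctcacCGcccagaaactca
Zfp57, chr17:37002275-37002574, plus strand: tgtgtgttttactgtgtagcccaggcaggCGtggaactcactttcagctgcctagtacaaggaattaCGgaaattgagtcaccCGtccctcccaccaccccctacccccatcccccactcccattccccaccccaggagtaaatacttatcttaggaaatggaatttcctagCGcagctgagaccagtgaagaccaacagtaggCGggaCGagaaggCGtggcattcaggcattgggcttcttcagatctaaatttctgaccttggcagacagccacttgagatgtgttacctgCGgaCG

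The Tet2 window held 57 CG dinucleotides, more than 99.8% of 32851 mouse windows of that length, whose median was 7. The Tet3 window held 22. The 3 windows of Dnmt3l held 3 to 6 and the 3 windows of Zfp57 held 4 to 9, counts near that median, and the lowest of the 19 was a Dnmt1 window with 2. Each of the other 8 genes had a window with 17 or more. The T-box half-site AGGTGTGA was searched on both strands and was in 0 of the 19 windows, against 1.28% of all windows. The TCF/LEF letters CTTTGAT were also in 0 of the 19, against 3.73% of all. With shares this low, absence from 19 windows does not set these genes apart from others. The methylated motif read by ZFP57, TGCCGC, was in 4 windows of 3 genes (Dnmt3a, Tet3 and Trim28), against 11.6% of all. The Dnmt3a windows among them overlap and share a site, so they do not count separately. The 3 motifs do not overlap each other in letters.

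Levels between genes were compared per kb of annotated exon. In WT cells Trim28 was the highest, at 209 ± 6.86 CPM per kb (SD, n = 2), followed by Dnmt3l at 91.2 ± 7.73 and Uhrf1 at 84.4 ± 2.72, which lie within their spread of each other. Dnmt3b had 45.1 ± 1.46 CPM per kb, Dnmt1 34.9 ± 1.22 and Zfp57 22.7 ± 0.597. Tet1 (8.22 ± 0.0902) and Dnmt3a (7.84 ± 0.0606) were close to each other, and Tet3 (1.48 ± 0.151) and Tet2 (1.15 ± 0.101) were the lowest. The exon lengths join all annotated transcripts, and where cells use a short form the level per kb is understated.

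**Figure D1:**
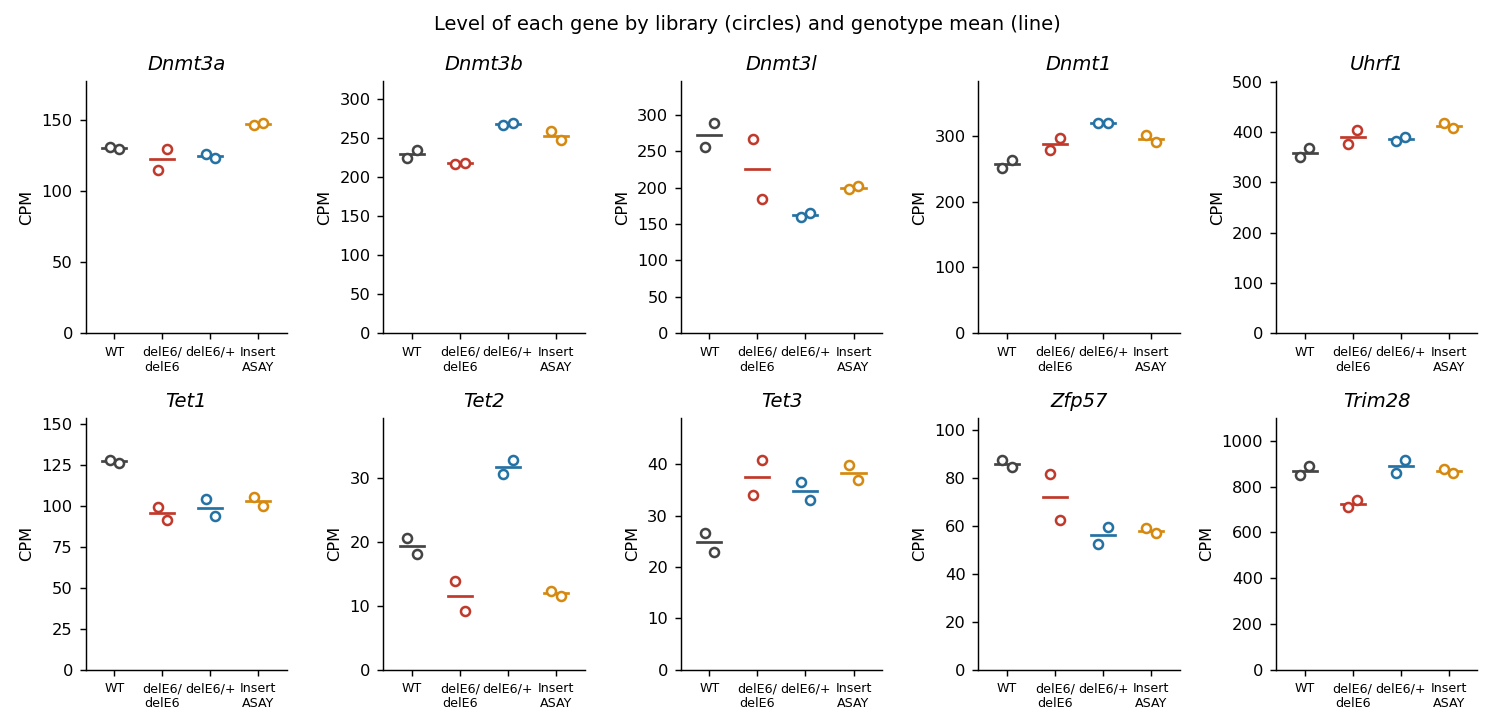
Level of each gene in CPM (vertical axes, from 0) in the 4 genotypes, with 1 circle per library and a line at the mean of the 2 libraries. Tet2 has its highest libraries in Tbxt delE6/+ (30.6 and 32.9 CPM), all 6 edited libraries lie below WT for Tet1 and above WT for Tet3, and the Tbxt delE6/delE6 circles are far apart for Dnmt3l.

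All 10 genes differed among the 4 genotypes (edgeR quasi-likelihood F test, adjusted p from 3.38e-06 for Tet2 to 0.0149 for Uhrf1), where 66.4% of all tested genes did so. A gene was called in a comparison when its adjusted p was under 0.05 and its log2 fold change was past 0.5 in size. Against WT, 2 of the 10 were called in Tbxt delE6/delE6 cells (Tet3 higher and Tet2 lower), where 6.12% of tested genes were called higher and 6.59% lower. In Tbxt delE6/+ cells 3 were called (Tet2 higher, Dnmt3l and Zfp57 lower), beside 6.6% higher and 6.89% lower of all. In Tbxt Insert ASAY cells 3 were called (Tet3 higher, Tet2 and Zfp57 lower), beside 11.5% higher and 9.85% lower of all. Regardless of sign, log2 fold changes of the 10 genes had medians of 0.26, 0.34 and 0.26 in these comparisons, and those of all tested genes 0.23, 0.21 and 0.29. The 3 comparisons share the WT libraries, and how many of all tested genes have edited libraries that do not overlap with WT was not counted. No gene of the 10 was called in Tbxt delE6/delE6 cells when replicate 2 of that genotype was left out.

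**Figure D2:**
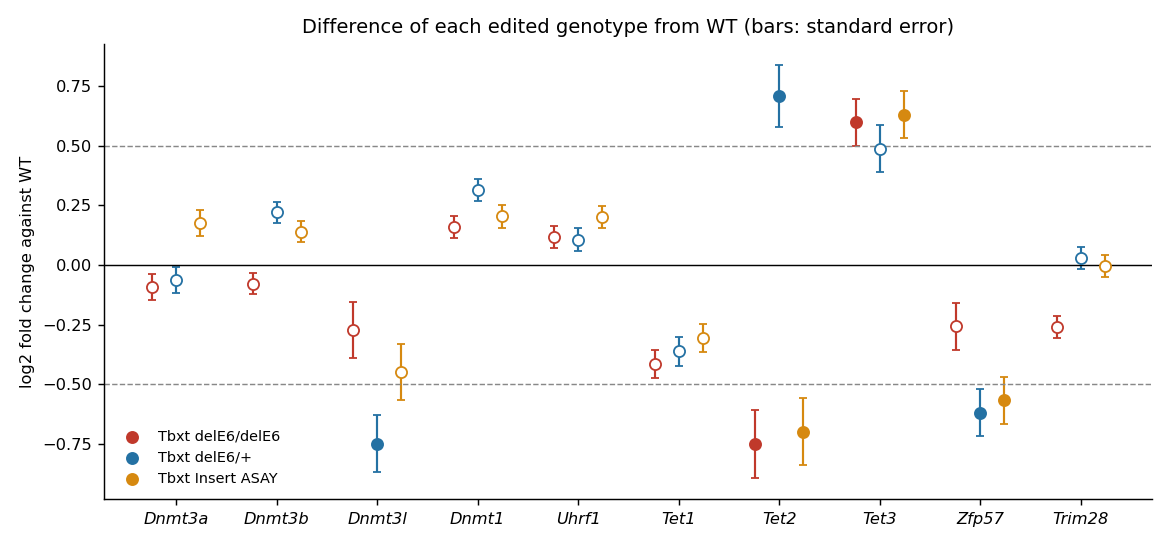
Log2 fold change against WT (vertical axis) of each gene in Tbxt delE6/delE6, Tbxt delE6/+ and Tbxt Insert ASAY cells, with bars of 1 standard error from edgeR, filled points for called genes and dashed lines at the fold threshold of 0.5. Tet2 is the only gene with called differences in opposite directions, 0.71 in Tbxt delE6/+ and -0.75 and -0.70 in the others.

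Among the de novo genes, Dnmt3l moved most. DNMT3L has no catalytic activity of its own and stimulates DNMT3A and DNMT3B. It was at 256 and 289 CPM in WT, 267 and 185 in Tbxt delE6/delE6, 159 and 165 in Tbxt delE6/+, and 198 and 202 in Tbxt Insert ASAY. The Tbxt delE6/+ libraries were the lowest, the Tbxt Insert ASAY libraries also lay below WT, and replicate 1 of Tbxt delE6/delE6 lay inside the WT range. Dnmt3l fell in Tbxt delE6/+ cells by 0.75 ± 0.12 on the log2 scale (SE, edgeR adjusted p = 0.000372). In Tbxt Insert ASAY cells the log2 fold change was -0.45 ± 0.12 (edgeR adjusted p = 0.00714), short of the fold threshold, and without WT replicate 1 it was -0.53 and called. In Tbxt delE6/delE6 cells it was -0.27 ± 0.12 (edgeR adjusted p = 0.0892), but -0.56 without replicate 1 of that genotype and -0.03 without replicate 2. Between edited genotypes, Dnmt3l was lower in Tbxt delE6/+ than in Tbxt delE6/delE6 (-0.48 ± 0.12, edgeR adjusted p = 0.00529), a value that was -0.19 without Tbxt delE6/delE6 replicate 1 and -0.72 without replicate 2. On the opposite strand Dnmt3l shares exon sequence with Aire, which had at most 68 reads in a library.

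Dnmt3b, the main de novo enzyme of the early embryo, had 225 and 235 CPM in WT, 217 and 219 in Tbxt delE6/delE6, 267 and 269 in Tbxt delE6/+, and 259 and 248 in Tbxt Insert ASAY. Both Tbxt delE6/+ libraries were above all others. The log2 fold changes against WT were -0.08, 0.22 and 0.14, of which those of Tbxt delE6/+ (edgeR adjusted p = 0.00205) and Tbxt Insert ASAY (edgeR adjusted p = 0.0203) passed on p but not on size.

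Dnmt3a, the other catalytic enzyme, had 131 and 129.7 CPM in WT, 115 and 129.6 in Tbxt delE6/delE6, 126 and 124 in Tbxt delE6/+, and 147 and 148 in Tbxt Insert ASAY. The last genotype was above the other 6 libraries. Its log2 fold change against WT was 0.18 ± 0.05 (edgeR adjusted p = 0.0183), while those of Tbxt delE6/delE6 (-0.09) and Tbxt delE6/+ (-0.06) did not pass. Per kb of exon, Dnmt3l made up 62.3% and 64.2% of the summed DNMT3 level in WT, and 47.1% and 47.9% in Tbxt delE6/+, where the share of Dnmt3b was 46.2% and 45.7% against 32.0% and 30.6% in WT. The Dnmt3l share was 64.4% and 55.0% in Tbxt delE6/delE6 and 52.6% and 54.0% in Tbxt Insert ASAY.

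The maintenance genes lay higher in edited cells, none by the fold threshold. Dnmt1 copies methylation after replication. It had 251 and 264 CPM in WT, 279 and 297 in Tbxt delE6/delE6, 320.0 and 320.4 in Tbxt delE6/+, and 302 and 291 in Tbxt Insert ASAY. All 6 edited libraries were above both WT libraries. The log2 fold changes were 0.16 ± 0.05, 0.31 ± 0.05 and 0.20 ± 0.05 (edgeR adjusted p = 0.0192, 0.000255 and 0.00333).

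UHRF1 recognizes hemimethylated CG and recruits DNMT1. Uhrf1 had 351 and 367 CPM in WT, 376 and 404 in Tbxt delE6/delE6, 383 and 390.3 in Tbxt delE6/+, and 418 and 408 in Tbxt Insert ASAY. Again no edited library reached down into the WT range, a separation that was not counted over all tested genes. The log2 fold change passed on p in Tbxt Insert ASAY only (0.20 ± 0.05, edgeR adjusted p = 0.00355), with 0.12 in Tbxt delE6/delE6 (edgeR adjusted p = 0.0691) and 0.11 in Tbxt delE6/+ (edgeR adjusted p = 0.107). Without WT replicate 1, or without either Tbxt Insert ASAY replicate, Uhrf1 no longer differed among the 4 genotypes. Both genes are transcribed mostly in S phase. A list of 15 S phase genes summed to 2517 to 2585 CPM in WT, 2462 to 2502 in Tbxt delE6/delE6, 2756 to 2828 in Tbxt delE6/+ and 2668 to 2673 in Tbxt Insert ASAY. The list's median log2 fold change in Tbxt delE6/+ was -0.0068 against WT, with 0 of the 15 called, and -0.096 against Tbxt delE6/delE6. The higher sum in Tbxt delE6/+ was thus not a rise of the list as a whole. The part of cell cycle stage in the Dnmt1 and Uhrf1 values was not tested.

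The TET genes changed in different directions. Tet1, the most abundant TET gene here, had 128 and 126 CPM in WT, 99.5 and 91.1 in Tbxt delE6/delE6, 104 and 93.9 in Tbxt delE6/+, and 105 and 99.9 in Tbxt Insert ASAY. All edited libraries lay below WT and overlapped in part with each other. The log2 fold changes of -0.42 ± 0.06, -0.36 ± 0.06 and -0.31 ± 0.06 passed on p (edgeR adjusted p = 0.000328, 0.000538 and 0.00105) but not on size, under every alternative run.

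Tet3, known for oxidizing the paternal genome of the zygote, had 26.6 and 23.0 CPM in WT, 34.1 and 40.9 in Tbxt delE6/delE6, 36.5 and 33.1 in Tbxt delE6/+, and 39.9 and 36.8 in Tbxt Insert ASAY. The WT libraries were the lowest of all 8. Tet3 rose by 0.60 ± 0.10 in Tbxt delE6/delE6 (edgeR adjusted p = 0.00074) and by 0.63 ± 0.10 in Tbxt Insert ASAY (edgeR adjusted p = 0.000222). In Tbxt delE6/+ it was 0.49 ± 0.10 (edgeR adjusted p = 0.0023), just short of the fold threshold, and it passed without WT replicate 1 (0.60) or without Tbxt delE6/+ replicate 2 (0.56). The Tbxt delE6/delE6 call was lost without WT replicate 2 (0.50) and without Tbxt delE6/delE6 replicate 2 (0.46).

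Tet2 showed the widest range, 1.48 on the log2 scale between genotype means. TET2, unlike TET1 and TET3, has no CXXC domain of its own to bind CG. Tet2 had 20.6 and 18.2 CPM in WT (571 and 489 reads), 13.9 and 9.28 in Tbxt delE6/delE6, 30.6 and 32.9 in Tbxt delE6/+, and 12.3 and 11.6 in Tbxt Insert ASAY. No group overlapped with WT, and the Tbxt delE6/+ libraries were above all others.

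Against WT, Tet2 fell by 0.75 ± 0.14 in Tbxt delE6/delE6 (edgeR adjusted p = 0.00171) and by 0.70 ± 0.14 in Tbxt Insert ASAY (edgeR adjusted p = 0.00131), and it rose by 0.71 ± 0.13 in Tbxt delE6/+ (edgeR adjusted p = 0.00106). The fall in Tbxt delE6/delE6 was 0.48 in size without replicate 2 of that genotype, under the fold threshold, and 1.06 without replicate 1.

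Compared directly, Tet2 was 1.46 ± 0.14 higher on the log2 scale in Tbxt delE6/+ than in Tbxt delE6/delE6 (2.76-fold, edgeR adjusted p = 3.45e-06). It was the 1 gene of the 10 called there, beside 11.2% higher and 11% lower of all tested genes. Tbxt Insert ASAY cells were below Tbxt delE6/+ by a log2 fold change of -1.41 ± 0.14 (edgeR adjusted p = 3.27e-06), again the 1 call of the 10, beside 14.6% higher and 13% lower of all. Between Tbxt Insert ASAY and Tbxt delE6/delE6 the Tet2 difference was 0.05 ± 0.15. In that comparison edgeR called 0 of the 10 and DESeq2 0, with 4 genes at an unadjusted p under 0.05, beside 2.79% higher and 2.38% lower of all. The 3 that passed there on adjusted p were Dnmt3a (0.27, and 0.17 without Tbxt delE6/delE6 replicate 1), Dnmt3b (0.22) and Trim28 (0.26).

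Tet2 lay in a stretch of chromosome 3 that was higher in Tbxt delE6/+. Around it, 15 tested genes start within 2 Mb, and all 15 had a log2 fold change above 0 in Tbxt delE6/+, with a median of 0.73 and 12 called higher. Tet2 itself, at 0.71, was 0.02 below that median. In Tbxt delE6/delE6 and Tbxt Insert ASAY the neighbours had medians of 0.02 and 0.13, and Tet2 lay 0.77 and 0.83 below them. Wider along the chromosome, 631 genes starting from 50 to 140 Mb on chromosome 3 had a median of 0.45 in Tbxt delE6/+ (520 above 0), and 78 genes from 140 Mb onwards a median of -0.64, against -0.0083 on the other chromosomes. These bounds were chosen after the values were seen. In Tbxt delE6/delE6 the middle stretch had a median of -0.0066 and in Tbxt Insert ASAY -0.0051. In Tbxt delE6/+ a change of Tet2 by itself and the shift of its chromosome cannot be told apart. None of the other 9 genes lies on chromosome 3.

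**Figure D3:**
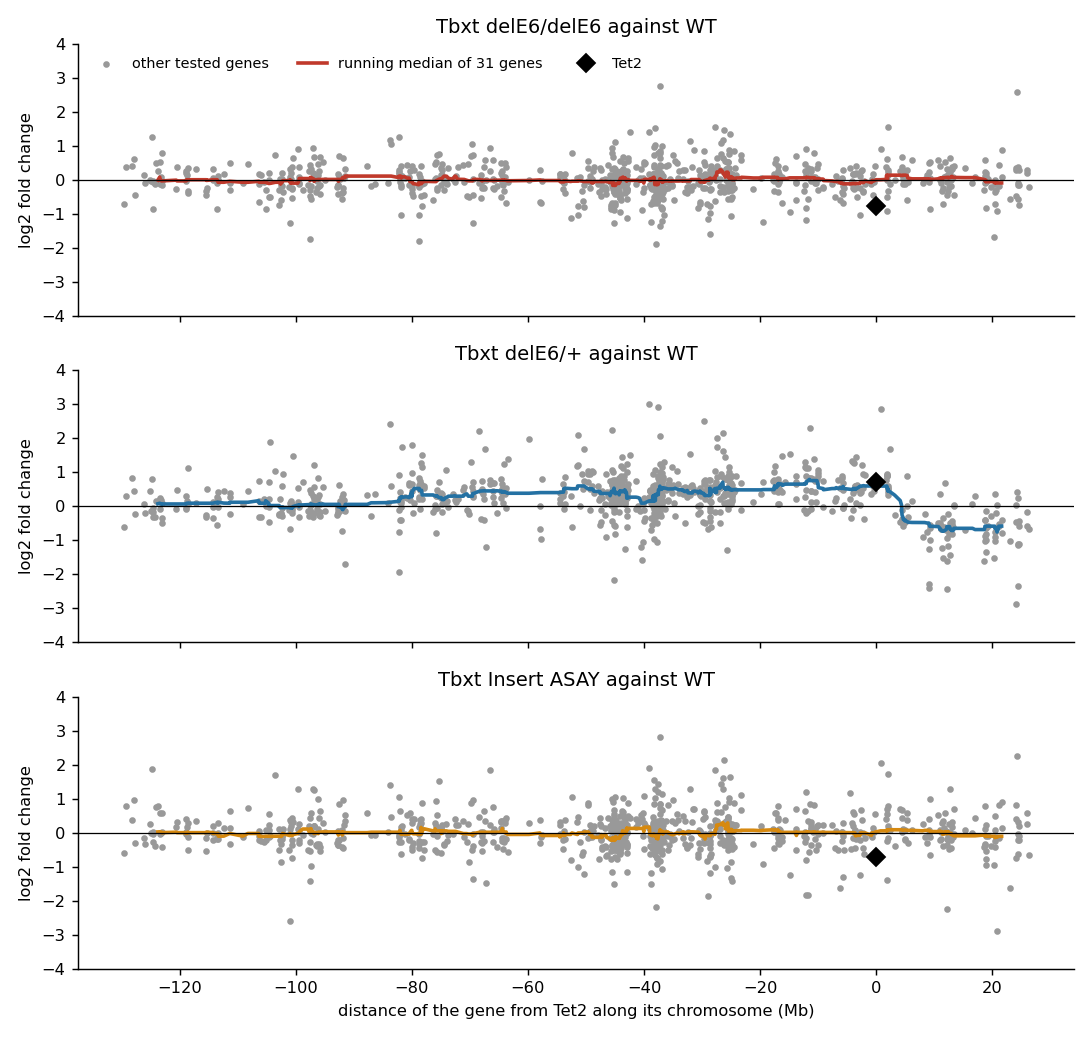
Log2 fold change against WT (vertical axis) of the 848 tested genes of chromosome 3 by their distance from Tet2 in Mb (horizontal axis), with a running median of 31 genes and Tet2 as a diamond. In Tbxt delE6/+ Tet2 (0.71) lies near the median of its neighbours (0.73), and in the other genotypes it lies below theirs (0.02 and 0.13).

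In shares of the summed TET level per kb, Tet1 went from 74.6% and 76.9% in WT to 69.2% and 66.3% in Tbxt delE6/delE6, 62.7% and 60.7% in Tbxt delE6/+, and 68.6% and 69.1% in Tbxt Insert ASAY. Tet3 took 14.3% and 13.0% in WT and 19.8% to 27.5% in the edited libraries. Tet2 took 11.0% and 10.2% in WT, 8.85% and 6.18% in Tbxt delE6/delE6, 16.9% and 19.5% in Tbxt delE6/+, and 7.34% and 7.35% in Tbxt Insert ASAY. The sums themselves were 11.1 and 10.6 CPM per kb in WT, 9.30 and 8.90 in Tbxt delE6/delE6, 10.7 and 10.0 in Tbxt delE6/+, and 9.94 and 9.36 in Tbxt Insert ASAY.

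**Figure D4:**
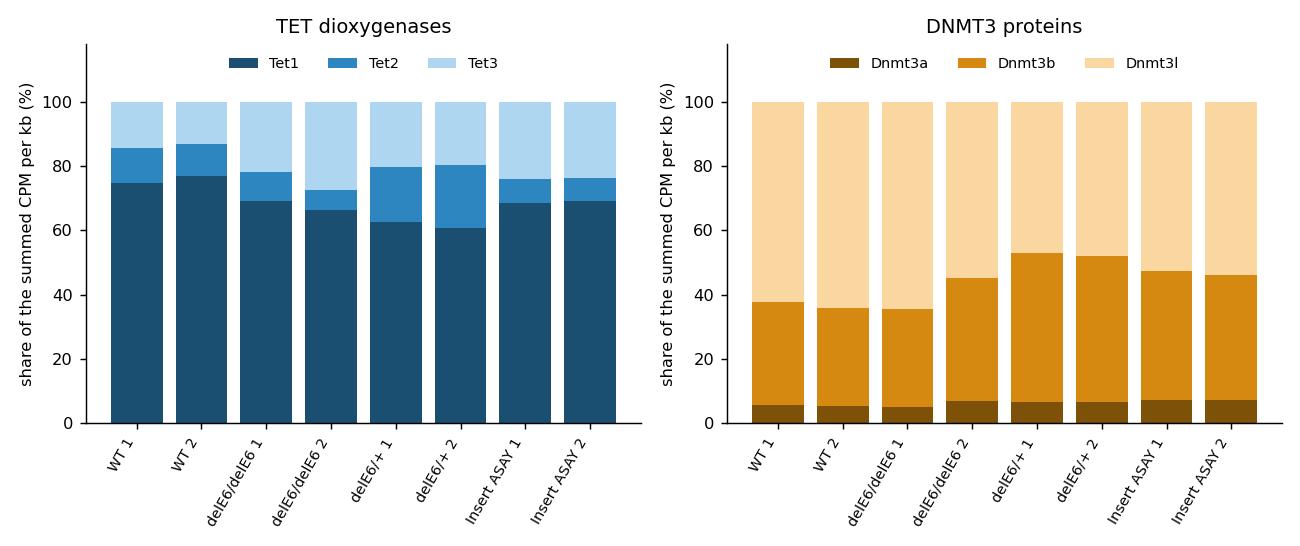
Share of each gene (vertical axes, percent) in the summed level per kb of exon of the TET genes (left) and DNMT3 genes (right), with 1 bar per library. Tet1 holds 74.6% and 76.9% in WT and less in each edited library, and Dnmt3l holds its smallest shares, 47.1% and 47.9%, in Tbxt delE6/+.

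Of the imprint protectors, ZFP57 is a zinc-finger protein that binds methylated copies of imprinting control regions, and TRIM28 (KAP1) is the scaffold it recruits. Zfp57 had 87.4 and 84.2 CPM in WT, 81.5 and 62.2 in Tbxt delE6/delE6, 52.3 and 59.5 in Tbxt delE6/+, and 59.0 and 56.9 in Tbxt Insert ASAY. All edited libraries were below WT, although replicate 1 of Tbxt delE6/delE6 was close to it. Zfp57 fell by 0.62 ± 0.10 in Tbxt delE6/+ (edgeR adjusted p = 0.000421) and by 0.57 ± 0.10 in Tbxt Insert ASAY (edgeR adjusted p = 0.000488), and both calls held under every alternative run. In Tbxt delE6/delE6 the log2 fold change was -0.26 ± 0.10 (edgeR adjusted p = 0.0572), with -0.46 without its replicate 1 and -0.07 without its replicate 2. Tested directly, Zfp57 was lower in Tbxt delE6/+ than in Tbxt delE6/delE6 by a log2 fold change of -0.36 ± 0.10 (edgeR adjusted p = 0.0101). It was -0.16 without Tbxt delE6/delE6 replicate 1 and -0.55 without replicate 2, and without Tbxt delE6/+ replicate 1 it was -0.27 and did not pass (edgeR adjusted p = 0.117). The 77 tested genes within 2 Mb of Zfp57 had medians of -0.07, -0.22 and -0.10 in Tbxt delE6/delE6, Tbxt delE6/+ and Tbxt Insert ASAY, with 33, 21 and 26 above 0. In Tbxt delE6/+ 1 of them was called higher and 11 lower, beside 6.6% and 6.89% of all tested genes. Zfp57 lay 0.40 below their median there, and the part of its neighbours' shift in the Zfp57 value was not tested.

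Trim28 had 849 and 889.8 CPM in WT, 712 and 740.0 in Tbxt delE6/delE6, 858 and 917 in Tbxt delE6/+, and 876 and 858 in Tbxt Insert ASAY. Here the Tbxt delE6/delE6 libraries alone stood below the rest. The log2 fold change there was -0.26 ± 0.05 (edgeR adjusted p = 0.00119), against 0.03 in Tbxt delE6/+ (edgeR adjusted p = 0.675) and -0.0041 in Tbxt Insert ASAY (edgeR adjusted p = 0.951). The signs of the last 2 values changed between alternatives. Tested directly, Trim28 was higher in Tbxt delE6/+ than in Tbxt delE6/delE6 by 0.29 ± 0.05 (edgeR adjusted p = 0.000236).

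Some of the 10 genes followed each other over the 8 libraries, which share their genotypes. Dnmt3l and Zfp57 had the highest Pearson correlation of log2 CPM (0.92), Uhrf1 and Tet3 had 0.83, and the most opposed pairs were Dnmt3l and Dnmt1 (-0.91), Dnmt1 and Zfp57 (-0.91) and Tet1 and Tet3 (-0.83). Naive pluripotency genes, which ES cells express before they leave that state, summed to 364 to 380.5 CPM in WT, 213 to 266 in Tbxt delE6/delE6, 271 to 272 in Tbxt delE6/+ and 235 to 236 in Tbxt Insert ASAY. Their part in the Dnmt3l and Zfp57 values was not tested. Over 9633 other genes with at least 10 CPM on average, the patterns most like Dnmt3l were those of Utf1 (r = 0.99), Mrps18a (0.98) and Fth1 (0.98). Those most like Tet2 were Aldh6a1 (1.00), Nup133 (0.99) and Tcea3 (0.99). These were picked as the highest of all on the same 8 libraries, so values near 1 are no test. The correlation does not measure size: Nup133 had 142 to 153 CPM in Tbxt delE6/delE6 and 184 to 188 in Tbxt delE6/+. Aldh6a1 had 20.1 to 21.2 CPM in WT, 13.6 to 17.6 in Tbxt delE6/delE6, 25.6 to 26.6 in Tbxt delE6/+ and 16.1 to 16.5 in Tbxt Insert ASAY.

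Other genes of the pathway were taken from lists by function. Of 7 partners of maintenance (Uhrf2, Hells, Cdca7, Usp7, Pclaf, Lig1 and Pcna), edgeR called 0 against WT in each edited genotype and DESeq2 0, with 6, 4 and 6 at an unadjusted p under 0.05 in Tbxt delE6/delE6, Tbxt delE6/+ and Tbxt Insert ASAY. Of all tested genes 6.12%, 6.6% and 11.5% were called higher and 6.59%, 6.89% and 9.85% lower there. Between edited genotypes, edgeR called 2 of the 7 higher in Tbxt delE6/+ than in Tbxt delE6/delE6 (Uhrf2, 0.65, and Cdca7, 0.56), and in Tbxt Insert ASAY against Tbxt delE6/+ it called 1 higher (Pcna, 0.51) and 2 lower (Uhrf2, -0.89, and Cdca7, -0.55). DESeq2 called 2 and 3. Of all tested genes 11.2% were called higher and 11% lower in the first of these 2 comparisons, and 14.6% higher and 13% lower in the second. Uhrf2, Cdca7 and Pcna were named after their values were seen. The list's median log2 fold changes against WT were -0.04, 0.11 and 0.0092, beside -0.0096, -0.00059 and -0.0051 over all tested genes. Of the 15 S phase genes 1 was called against WT, Ccne2, a cyclin of the G1 to S transition. It was higher in Tbxt delE6/delE6 (0.73) and Tbxt Insert ASAY (0.90), where 6.12% and 11.5% of all tested genes were called higher. In Tbxt delE6/+ against WT edgeR and DESeq2 called 0 of the 15, with 8 at an unadjusted p under 0.05. The median over the S phase list was 0.02, -0.0068 and 0.11. Between edited genotypes, edgeR called 2 of the 15 lower in Tbxt delE6/+ than in Tbxt delE6/delE6 (Ccne1 and Ccne2), beside 11% of all. In Tbxt Insert ASAY it called 4 higher than in Tbxt delE6/+ (Ccne1, Ccne2, Tyms and Tk1), beside 14.6% of all. DESeq2 gave the same numbers. Between Tbxt Insert ASAY and Tbxt delE6/delE6 both called 0, with 7 at an unadjusted p under 0.05. Ccne1, Tyms and Tk1 were named after their values were seen.

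Of 15 repair genes of oxidized cytosine and TET partners, 2 were lower in Tbxt delE6/delE6, 1 was higher and 1 lower in Tbxt delE6/+, and 3 were higher and 3 lower in Tbxt Insert ASAY (medians -0.03, 0.04 and 0.02). Of all tested genes 6.59% were called lower in Tbxt delE6/delE6, and 6.6% higher and 6.89% lower in Tbxt delE6/+. DESeq2 called 2 higher and 3 lower in the last, the genotype that also had the most calls over all tested genes (11.5% higher and 9.85% lower). The GADD45 genes encode stress-response proteins reported to take part in demethylation. Gadd45b had 167 CPM in both WT libraries, 125 and 87.2 in Tbxt delE6/delE6, 85.5 and 92.0 in Tbxt delE6/+, and 33.9 and 46.3 in Tbxt Insert ASAY. It was below WT in all 6 edited libraries and lowest in Tbxt Insert ASAY. The log2 fold changes were -0.66 ± 0.14, -0.91 ± 0.14 and -2.06 ± 0.15 (edgeR adjusted p = 0.00293, 0.00026 and 1.69e-06), and the first was -0.42 without Tbxt delE6/delE6 replicate 2.

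Gadd45a fell in Tbxt Insert ASAY by 1.66 ± 0.17, from 163 and 161 CPM to 45.9 and 56.6 (edgeR adjusted p = 1.32e-05). Gadd45g fell in Tbxt delE6/delE6 by 1.07 ± 0.08, from 25.7 and 27.8 to 13.2 and 12.4 CPM (edgeR adjusted p = 7.54e-06), and in Tbxt Insert ASAY by 0.66 ± 0.08, to 17.3 and 16.5 CPM (edgeR adjusted p = 3.17e-05). In Tbxt delE6/+ it lay above WT, at 36.5 and 35.5 CPM, with a log2 fold change of 0.43 ± 0.07 that passed on p but not on size (edgeR adjusted p = 0.000787). Apex1, the abasic-site endonuclease, rose in Tbxt Insert ASAY by 0.61 ± 0.07 (edgeR adjusted p = 1.85e-05). Cxxc4 encodes a CXXC protein that binds CG and acts on TET2, and it lies on chromosome 3 as Tet2 does. It had 4 and 2 reads in WT, 6 and 5 in Tbxt delE6/delE6, 24 and 18 in Tbxt delE6/+, and 14 and 12 in Tbxt Insert ASAY. At these counts it rose in Tbxt delE6/+ by 2.86 ± 0.47 (edgeR adjusted p = 0.000465) and in Tbxt Insert ASAY, where its chromosome was not shifted, by 2.06 ± 0.52 (edgeR adjusted p = 0.00542). The former value was 2.47 without WT replicate 2 and 3.39 without WT replicate 1. The latter call was lost without WT replicate 2 (1.68) and by DESeq2 (2.11).

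Of 5 regulators of de novo methylation, 2 were lower in Tbxt delE6/delE6, 2 in Tbxt delE6/+ and 1 in Tbxt Insert ASAY (medians -0.05, -0.15 and 0.06), beside 6.59%, 6.89% and 9.85% called lower of all tested genes. Dppa3 (Stella), which keeps UHRF1 off chromatin in oocytes, had 38.1 and 38.9 CPM in WT, 21.3 and 13.9 in Tbxt delE6/delE6, 14.7 and 15.8 in Tbxt delE6/+, and 25.3 in both Tbxt Insert ASAY libraries. All edited libraries were below WT. It fell by 1.14 ± 0.14, 1.34 ± 0.14 and 0.61 ± 0.13 (edgeR adjusted p = 0.000113, 1.17e-05 and 0.00196), and each call held under all alternatives run. Prdm14, a repressor of Dnmt3b and Dnmt3l in naive ES cells, had only 18 and 27 reads in WT, 5 and 1 in Tbxt delE6/delE6, 5 and 4 in Tbxt delE6/+, and 14 and 9 in Tbxt Insert ASAY. It was called lower in Tbxt delE6/delE6 (-2.79 ± 0.56, edgeR adjusted p = 0.00236) and Tbxt delE6/+ (-2.19 ± 0.51, edgeR adjusted p = 0.00547). The former was -4.32 without Tbxt delE6/delE6 replicate 1, and DESeq2 gave no adjusted p for it. The latter call was lost without WT replicate 2 (-1.85) and without Tbxt delE6/+ replicate 2 (-2.10).

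**Figure D5:**
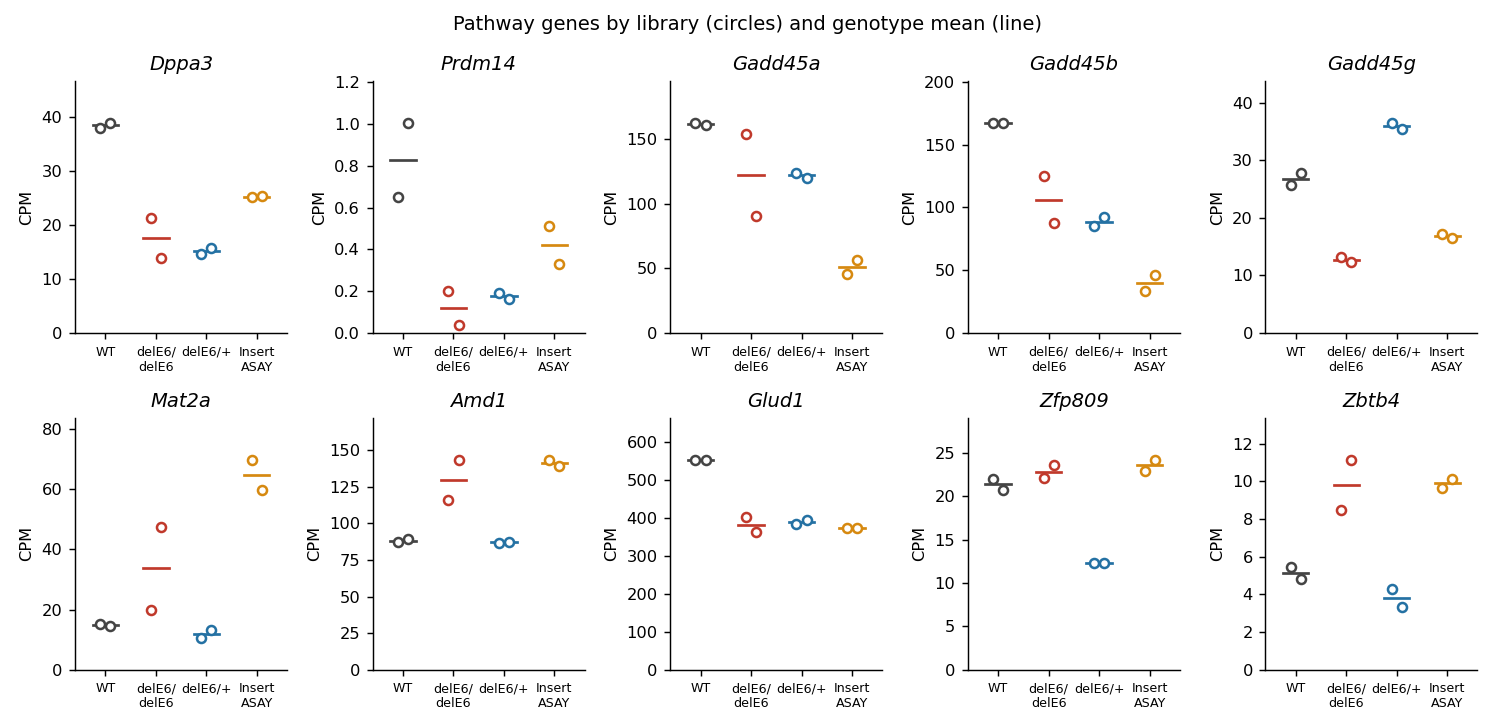
Level in CPM (vertical axes, from 0) of 10 genes from the pathway lists in the 4 genotypes, with 1 circle per library and a line at the mean of the 2 libraries. Dppa3, Gadd45b and Glud1 lie below WT in all edited libraries, and Mat2a is high in both Tbxt Insert ASAY libraries and in 1 of the Tbxt delE6/delE6 libraries.

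The methyl donor of these enzymes is S-adenosylmethionine. Of 16 genes of its metabolism 3 were higher in Tbxt delE6/delE6, 2 higher and 1 lower in Tbxt delE6/+, and 5 higher in Tbxt Insert ASAY (medians 0.08, -0.03 and 0.13). Of all tested genes 6.12%, 6.6% and 11.5% were called higher and 6.59%, 6.89% and 9.85% lower. Mat2a, which makes the donor, had 15.3 and 14.5 CPM in WT, 19.96 and 47.4 in Tbxt delE6/delE6, 10.5 and 13.1 in Tbxt delE6/+, and 69.7 and 59.6 in Tbxt Insert ASAY. It rose by 2.12 ± 0.27 in Tbxt Insert ASAY (edgeR adjusted p = 4.79e-05) and by 1.18 ± 0.28 in Tbxt delE6/delE6 (edgeR adjusted p = 0.00555), but the second value was 0.42 and not called without replicate 2 of that genotype. Mat2b, its regulatory subunit, rose in Tbxt Insert ASAY by 0.60 ± 0.07. Amd1, which uses the donor for polyamine synthesis, rose by 0.56 ± 0.08 in Tbxt delE6/delE6 and 0.68 ± 0.08 in Tbxt Insert ASAY, the first being 0.39 and not called without Tbxt delE6/delE6 replicate 2. Ahcyl1, a relative of the enzyme that clears the spent donor, rose by 0.80 ± 0.05 in Tbxt delE6/+ and lies in the raised stretch of chromosome 3. Tdh, which breaks down threonine in mouse ES cells, was lower in Tbxt delE6/+ (-0.57 ± 0.12) and, counted without regard to strand, not called (-0.45). In Tbxt Insert ASAY it was higher, at 28.3 and 25.9 CPM against 14.9 and 16.0 in WT (0.81 ± 0.11, edgeR adjusted p = 7.08e-05).

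TET enzymes need 2-oxoglutarate. Of 12 genes of its metabolism 1 was called, lower, in each edited genotype (medians -0.07, -0.0038 and -0.15), beside 6.59%, 6.89% and 9.85% of all tested genes. This was Glud1, glutamate dehydrogenase, with 553 CPM in both WT libraries, 401 and 361 in Tbxt delE6/delE6, 384 and 395 in Tbxt delE6/+, and 372 and 373 in Tbxt Insert ASAY. The WT libraries stood above all 6 others. The log2 fold changes were -0.54 ± 0.05, -0.50 ± 0.05 and -0.57 ± 0.05 (edgeR adjusted p = 3.12e-05, 8.88e-06 and 4.41e-06). The first was -0.46 without Tbxt delE6/delE6 replicate 2 and the second -0.48 without Tbxt delE6/+ replicate 1, both short of the fold threshold, as was the second by DESeq2.

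Of 16 partners of TRIM28 in silencing, edgeR and DESeq2 called 0 in Tbxt delE6/delE6 and 0 in Tbxt Insert ASAY, with 6 and 9 at an unadjusted p under 0.05, and 1 higher and 1 lower in Tbxt delE6/+ (medians 0.04, 0.11 and -0.02 in that order), beside 6.6% higher and 6.89% lower of all tested genes in Tbxt delE6/+. The higher one was Setdb1, the H3K9 methyltransferase that TRIM28 recruits. Setdb1 lies in the raised stretch of chromosome 3 (50 to 140 Mb), whose genes had a median of 0.45 in Tbxt delE6/+. Its own log2 fold change was 0.51 ± 0.05 (edgeR adjusted p = 1.03e-05). Counted without regard to strand it was 0.499, and it was 0.49 without WT replicate 2 and 0.45 without Tbxt delE6/+ replicate 2, and then not called. The lower one was Zfp809, a zinc-finger repressor of proviruses, at 12.3 CPM in both Tbxt delE6/+ libraries against 22.0 and 20.7 in WT (-0.80 ± 0.09, edgeR adjusted p = 1.6e-05). Of 8 methyl-CpG readers 1 was higher in Tbxt delE6/delE6 and 2 in Tbxt Insert ASAY, and edgeR and DESeq2 called 0 in Tbxt delE6/+, with 4 at an unadjusted p under 0.05 (medians 0.29, 0.27 and 0.04 in that order). Of all tested genes 6.12% were called higher in Tbxt delE6/delE6 and 11.5% in Tbxt Insert ASAY. Zbtb4, a zinc-finger reader, went from 5.45 and 4.84 CPM in WT to 8.50 and 11.1 in Tbxt delE6/delE6 and 9.66 and 10.1 in Tbxt Insert ASAY (0.94 ± 0.16 in both, edgeR adjusted p = 0.000838 and 0.00035). Mbd1 was the other, at 0.53 ± 0.09 in Tbxt Insert ASAY, and 0.49 without replicate 1 of that genotype, short of the threshold.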

How the data were processed

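RNA was sequenced from 8 libraries, 2 for each of 4 genotypes. Per the labels and methods, the authors enriched poly(A) RNA, made directional libraries, sequenced them in 1 lane and mapped reads to mm10 with STAR 2.7.2a. They deposited raw read counts per gene, and their own tests used DESeq2 1.40.2. Here the counts of the strand matching the kit were used. The reads on the opposite strand were 4.11% to 4.78%. STAR's 4 summary lines were left out, and the counts of WT replicate 1 came without these lines. Of 48440 identifiers, 48058 matched GENCODE M21. Genes were filtered with filterByExpr (17049 kept) and tested with edgeR 4.0.16 (TMM, quasi-likelihood, all 8 libraries, Benjamini-Hochberg adjustment over all tested genes) at the study's thresholds, an adjusted p of 0.05 and a log2 fold change of 0.5. The SE is the size of the log2 fold change divided by the root of F. The script was tested on simulated data. The alternatives were DESeq2 1.42.0, its size factors, no filter, a minimum of 10 reads in each library, both strands counted together, only the 2 groups compared, a replicate block and leaving out each library. The members and lists were chosen with earlier results of these data known. From each list, the called genes with the smallest adjusted p, at most 3 per comparison against WT, are named, and further calls of a gene so named are given with it. A gene of the methyl donor list is not reported here.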

Additional observations from a re-analysis of the deposited data

Results flagged for a closer look

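Tet2 differed between edited genotypes by a direct test. Its log2 fold change of Tbxt delE6/+ against Tbxt delE6/delE6 was 1.46 ± 0.14, and that of Tbxt Insert ASAY against Tbxt delE6/+ was -1.41 ± 0.14 (edgeR adjusted p = 3.45e-06 and 3.27e-06). Both Tbxt delE6/+ libraries (30.6 and 32.9 CPM) lay above all 4 libraries of the other edited genotypes (9.28 to 13.9 CPM). The 15 tested genes within 2 Mb of Tet2 had a median log2 fold change of 0.73 in Tbxt delE6/+ against WT, beside 0.02 and 0.13 in Tbxt delE6/delE6 and Tbxt Insert ASAY, and the part of that shift in the Tet2 differences was not tested.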

How the results depend on the processing

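With all 8 libraries in the data, each alternative setting gave the same number of called genes among the 10 in every comparison it was run for (crossed replicate numbers for 1 comparison, only the groups compared for the 6 comparisons of a pair), and 428 of 430 log2 fold changes kept their direction and call. The exceptions were Trim28 in Tbxt Insert ASAY against WT, at 0.00027 with DESeq2 size factors and 0.0019 with at least 10 counts in every library. Leaving out each library in turn gave 0 to 3 called genes for Tbxt delE6/delE6 against WT (0 without its replicate 2, 1 without WT replicate 2, 3 without its replicate 1), 3 to 4 for Tbxt delE6/+ and for Tbxt Insert ASAY against WT, and 1 to 3 for Tbxt delE6/+ against Tbxt delE6/delE6 (3 without Tbxt delE6/delE6 replicate 2, 2 without Tbxt delE6/+ replicate 2). The cause was not tested. These log2 fold changes, none of them called, changed sign: for Tbxt delE6/+ against Tbxt delE6/delE6, Dnmt3a (-0.060 to 0.12), Uhrf1 (-0.067 to 0.040), Tet1 (-0.022 to 0.12) and Tet3 (-0.24 to 0.028), for Tbxt Insert ASAY against Tbxt delE6/delE6, Dnmt3l (-0.42 to 0.098), Dnmt1 (-0.016 to 0.089), Tet2 (-0.22 to 0.35) and Tet3 (-0.11 to 0.17), for Tbxt Insert ASAY against Tbxt delE6/+, Tet1 (-0.017 to 0.13), Zfp57 (-0.041 to 0.15) and Trim28 (-0.083 to 0.013), and against WT, Trim28 in Tbxt delE6/+ (-0.020 to 0.076) and Tbxt Insert ASAY (-0.039 to 0.027). A lone library left in a genotype is assumed to vary like the others.

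Over all tested genes, Tbxt Insert ASAY against Tbxt delE6/delE6 had 880 calls, but 582 by DESeq2, 572 with only those groups, 358 without Tbxt Insert ASAY replicate 1 and 1529 without Tbxt delE6/delE6 replicate 2. Tbxt delE6/delE6 against WT had 2167 calls, but 3388 without its replicate 1 and 1149 without its replicate 2. The replicate numbers did not pair the samples (correlations of deviations from -0.10 to 0.07 over 12837 genes), and with a replicate block the called genes among the 10 numbered 2, 3 and 3 against WT, 1, 0 and 1 between edited genotypes, and 10 among the 4 genotypes. With the numbers of Tbxt delE6/delE6 crossed, chosen after seeing the data, Tbxt Insert ASAY against Tbxt delE6/delE6 had 0 called of the 10 and 882 over all genes.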

Other observations

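Of 9 naive pluripotency genes, 4, 5 and 5 were called lower against WT in Tbxt delE6/delE6, Tbxt delE6/+ and Tbxt Insert ASAY, and none higher (median log2 fold changes -0.45, -0.54 and -0.56), where 6.59%, 6.89% and 9.85% of all tested genes were called lower. DESeq2 gave the same numbers. Tfcp2l1 (-0.90, -0.54 and -1.07) and Nanog (-1.04, -0.80 and -0.73), factors of the naive network, were called in all 3. Esrrb was called in Tbxt delE6/delE6 (-1.04) and Tbxt Insert ASAY (-0.56), as was Tbx3 (-1.60 and -1.96), whose first value was -1.07 without Tbxt delE6/delE6 replicate 2 and -2.41 without replicate 1. Klf5 was called in Tbxt delE6/+ (-0.73) and Tbxt Insert ASAY, and Nr0b1 in Tbxt delE6/+ (-1.12), with 0.41 in Tbxt Insert ASAY.

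Of 10 formative genes, expressed as ES cells leave the naive state, 2 were called higher and 1 lower in Tbxt delE6/delE6, 3 and 1 in Tbxt delE6/+, and 2 and 0 in Tbxt Insert ASAY (medians 0.30, 0.28 and 0.39), beside 6.12%, 6.6% and 11.5% called higher of all. Sall2 was called in each (0.58, 0.69 and 0.79), although not in Tbxt delE6/delE6 without its replicate 2 (0.38). Pou3f1 was called in Tbxt delE6/delE6 (0.74) and Tbxt Insert ASAY (0.51), the second call being lost without WT replicate 2 or Tbxt Insert ASAY replicate 2 (0.45 each). Lef1 (1.23, in the raised stretch of chromosome 3) and Sox3 (1.02) were called in Tbxt delE6/+. Foxd3 was called in Tbxt delE6/delE6 (-1.40), but not without WT replicate 1 or by DESeq2, and it did not reach 10 reads in every library.

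Of 13 germline genes that DNA methylation keeps silent in somatic cells, 6 were called lower in Tbxt delE6/delE6, 2 higher and 2 lower in Tbxt delE6/+, and 7 lower in Tbxt Insert ASAY (medians -0.42, -0.07 and -0.66), against 5, 3 and 6 calls by DESeq2 and the same shares of all genes as above. Without Tbxt delE6/delE6 replicate 2, 5 of the 6 calls of that genotype were lost and only Sycp1 kept its call, and without WT replicate 2, 3 of the 6 were lost. Sycp1, a synaptonemal complex gene, was called in Tbxt delE6/delE6 (-0.81, and -0.50 without its replicate 2) and Tbxt Insert ASAY (-0.72), and Taf7l (-1.07), Asz1 (1.53) and Tdrd1 (0.59) in Tbxt delE6/+. Asz1 did not reach 10 reads in every library. Ddx4 and Mael were called in Tbxt Insert ASAY (-0.68 and -0.93) and in Tbxt delE6/delE6 (-0.53 and -0.69). There both calls were lost without replicate 2 (-0.35 each), Ddx4 also without WT replicate 2 (-0.47) and Mael without WT replicate 1 (-0.60), and Mael was -1.12 without replicate 1.

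Of 5 ES cell markers, 1 was called lower in Tbxt delE6/delE6, Pou5f1 (-0.64, and -0.43 and not called without its replicate 2), where 6.59% of all genes were. In Tbxt delE6/+ 2 were called higher, Lin28a (0.81) and Sox2 (0.72), beside 6.6% of all genes, and 2 lower, beside 6.89%, Pou5f1 (-0.68) and Utf1 (-0.52, and -0.44 and not called without WT replicate 2). In Tbxt Insert ASAY edgeR and DESeq2 called 0, with 3 at an unadjusted p under 0.05, where 11.5% of all genes were called higher and 9.85% lower. Neural progenitor markers summed to 106 to 109 CPM in WT, 151 to 198 in Tbxt delE6/delE6, 106 to 107 in Tbxt delE6/+ and 121 to 130.3 in Tbxt Insert ASAY. Of the 4 tested, Nes was called higher in Tbxt delE6/delE6 (0.81) and was -0.43 in Tbxt delE6/+, although it lies in the raised stretch of chromosome 3, and there Sox1 (2.04) and Pax6 (1.31) were called higher, so 1 and 2 of the 4 beside 6.12% and 6.6% of all genes. The list's medians were -0.12, 0.67 and 0.03.

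Of all tested genes 6.12%, 6.6% and 11.5% were called higher and 6.59%, 6.89% and 9.85% lower in the 3 comparisons against WT. Primitive endoderm markers summed to 10.8 to 19.2 CPM, with Gata4 called lower in Tbxt delE6/delE6 (-0.67, not without its replicate 2) and Dab2 (1.00) and Foxa2 (1.47, not by DESeq2 or without WT replicate 2 or Tbxt delE6/+ replicate 2) higher in Tbxt delE6/+. Streak and mesoderm markers summed to 24.8 to 25.3 CPM in Tbxt delE6/delE6, 10.6 to 13.1 in Tbxt delE6/+ and 18.5 to 21.6 in the others. Eomes was called higher in Tbxt delE6/delE6 (0.54, not without WT replicate 1) and lower in Tbxt delE6/+ (-0.95). Mixl1 was called higher in Tbxt Insert ASAY (1.88, not without either WT replicate or Tbxt Insert ASAY replicate 2). Foxa2 and Mixl1 did not reach 10 reads in every library. Wnt3 was called lower in Tbxt delE6/+ (-0.62) and Tbxt Insert ASAY (-0.69), neither by DESeq2. The first Wnt3 call was also lost without any single WT or Tbxt delE6/+ library, and the second without Tbxt Insert ASAY replicate 2.

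Of 4 tested trophoblast markers 2 were called in each edited genotype, and of 6 tested fibroblast markers 2, 3 and 4, beside the same shares of all genes. Hand1 was called lower in all 3 edited genotypes (-0.87, -0.64 and -1.50, the second neither by DESeq2 nor without any 1 of its 4 libraries) and Ascl2 lower in Tbxt delE6/delE6 (-1.13). Cdx2 did not reach 10 reads in every library. At such low counts it was called higher in Tbxt delE6/+ (3.06, but 2.46 without WT replicate 1 and 4.05 without WT replicate 2). Cdx2 was also called higher in Tbxt Insert ASAY (1.78, but 1.18 without WT replicate 1 and 1.48 without Tbxt Insert ASAY replicate 1, both not called, and 2.77 without WT replicate 2). Fibroblast Col1a1 was called lower in Tbxt delE6/delE6 (-0.77) and Tbxt Insert ASAY (-1.32). The other fibroblast calls were Col3a1 lower in all 3 (-2.02, -1.55 and -1.79), Dcn (-0.65) and Col1a2 (-0.71) lower in Tbxt Insert ASAY, and Col1a2 (0.66) and Thy1 (0.54) higher in Tbxt delE6/+, and each of them was lost without WT replicate 2. Col3a1 did not reach 10 reads in every library.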
